A study of Mus musculus with 23 samples.

Results

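The 5 genes described here encode the myosin chains of the ventricular thick filament: the heavy chains Myh6, Myh7 and Myh7b and the ventricular light chains Myl2 and Myl3. They were taken by name, and all 5 of them were found by gene ID among the 49315 genes of the count table and passed the filter on low counts, as did 15500 genes in all. Each was read in 23 RNA sequencing libraries of the left ventricle, the main pumping chamber, from FVB mice. From a starting age of 3 weeks, 4 libraries came from mice given aerosol of the e-cigarette vehicle with nicotine, 3 from mice given the vehicle alone and 4 from mice in filtered air. From a starting age of 3 months there were 4, 4 and 4. Daily sessions of 4 hours, 5 per week, went on for 3 months in all groups, so starting and final age cannot be told apart. Both exposed groups of a start are set against the same air libraries. The labels name no genotype, sex, litter or batch, and do not say that each library is a separate animal. The p-values therefore measure the spread between these libraries, which may be technical. Groups are called 3-week or 3-month nicotine, vehicle and air, and library numbers are those in the labels.

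Myosin is the motor of muscle. Its heavy chains form the thick filament and carry the heads that split ATP and pull on actin, and each neck binds an essential and a regulatory light chain. In the mouse ventricle the fast chain alpha, from Myh6, is the main adult heavy chain, while the slow chain beta, from Myh7, is the main one before birth and returns under pressure overload or lack of thyroid hormone. Myh7b is a minor heavy chain gene of striated muscle. Myl2 encodes the regulatory and Myl3 the essential light chain of the ventricle.

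Depth ranged between 12297955 and 17821550 counts per library. The 5 genes took 5.25 to 6.18% of all counts. Markers of ventricular cardiomyocytes, which include Myl2 and Myl3, were present, with 9 of 9 detected in each group and a summed level of 40900 to 59050 CPM (counts relative to the TMM-scaled library total), against 85.0 to 513 CPM for 6 atrial and 34.0 to 112 CPM for 9 skeletal muscle markers. In a bulk sample, fewer cardiomyocytes and less message per cardiomyocyte cannot be told apart. Libraries also differed in how their genes deviated with exonic length. The rank correlation of that deviation with length, over 13339 genes, was between -0.36 and 0.37, and is given below because heavy chain messages are long and light chain messages short.

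Both main heavy chain genes lie head to tail on the minus strand of chromosome 14 (GRCm38, GENCODE vM21), Myh7 at chr14:54970684-54994626 and Myh6 at chr14:54941921-54966927, with 3756 bases between them. Myh7b is on chromosome 2 (chr2:155611212-155634307), Myl2 on chromosome 5 (chr5:122100951-122113472) and Myl3 on chromosome 9 (chr9:110741861-110769798), all on the plus strand. The long noncoding gene Mhrt runs antisense to the 3' part of Myh7 and shares 484 of its 1214 exonic bases with Myh7 exons. An intron of Myh6 holds the miRNA gene Mir208a, an intron of Myh7 holds Mir208b, and an intron of Myh7b holds Mir499. The strand setting is not given in the sources used here. Reads of Mhrt and Myh7 may not be fully separated.

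**Figure D1:**
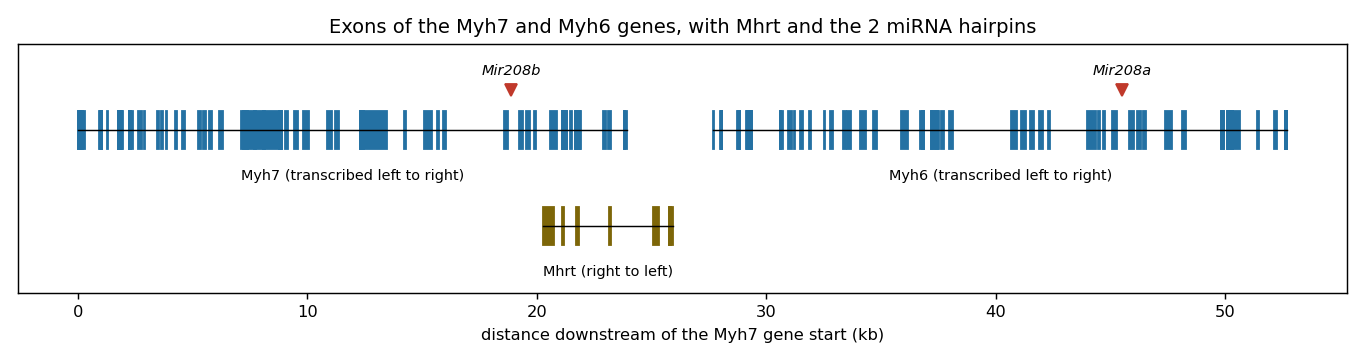
Map of the Myh7 and Myh6 genes by distance downstream of the Myh7 gene start (kb). Blocks are the merged exons of all annotated transcripts, the lower track is Mhrt on the opposite strand, and triangles mark the miRNA hairpins. The 2 heavy chain genes are 3756 bases apart and Mhrt overlaps only the end of Myh7.

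The coding sequences of Myh6 (5817 bases) and Myh7 (5808 bases) were identical at 91.5% of aligned positions, and the longest identical stretch ran for 245 bases. Of all 50-base windows, 22.6% of those in Myh6 occurred in Myh7 and 22.2% of those in Myh7 occurred in Myh6, while none were shared with Myh7b, Myl2 or Myl3. Reads from such windows cannot be assigned to either gene, and how they were treated is not given in the sources used here. The stretch of 60 bases that differed most, with 33 bases the same, shows where the genes can be told apart. It starts at coding base 3226 of Myh6 and 3220 of Myh7, counted from the first base of the start codon, and capitals mark the bases that differ.
Myh6: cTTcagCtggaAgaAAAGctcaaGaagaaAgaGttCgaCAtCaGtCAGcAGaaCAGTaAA
Myh7: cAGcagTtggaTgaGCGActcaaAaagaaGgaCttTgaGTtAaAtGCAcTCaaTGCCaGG

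The 3 miRNAs carried in the heavy chain genes are shown because their hairpins were counted beside their host genes and because they form a family. Mature sequences are from RefSeq (GRCm38.p6), with the seed (bases 2 to 8) in capitals. The miR-208a and miR-208b seeds were identical, and that of miR-499 shared 6 of the 7 bases, with G8U as the difference between miR-208a and miR-499 (position 8 from the 5' end). In mice miR-208a is known to be needed for the return of Myh7 under stress.
miR-208a-3p: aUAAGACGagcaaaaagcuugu
miR-208b-3p: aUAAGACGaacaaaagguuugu
miR-499-5p: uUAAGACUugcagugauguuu

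Upstream sequence of the 2 genes is shown because the ratio of their messages is the main measure. RefSeq (GRCm38.p6) lists windows from 250 bases before to 50 after a start for all 5 members, and the first 200 bases are printed, at chr14:54966658-54966857 for Myh6 and chr14:54994677-54994876 for the Myh7 window whose start equals the GENCODE gene start. Both are on the minus strand, 5' to 3'. Capitals mark the core of the MCAT element, GGAATG on either strand, which TEAD factors bind.
Myh6: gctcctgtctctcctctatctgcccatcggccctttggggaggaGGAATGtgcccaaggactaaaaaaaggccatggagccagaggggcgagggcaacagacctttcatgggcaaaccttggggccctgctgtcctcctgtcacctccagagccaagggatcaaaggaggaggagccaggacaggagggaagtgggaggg
Myh7: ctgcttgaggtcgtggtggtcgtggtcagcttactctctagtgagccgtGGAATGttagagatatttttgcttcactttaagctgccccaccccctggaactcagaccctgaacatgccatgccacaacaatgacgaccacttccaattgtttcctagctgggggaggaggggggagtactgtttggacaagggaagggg

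The MCAT core began at base -206 relative to the Myh6 start, occurred once in that Myh7 window and at 2 positions in the Myl3 window, and was not among the letters of the Myh7b and Myl2 windows or of a second, shifted Myh7 window. Of all 32851 windows of this length, 14.7% held it. The motif AGGTCA, a core site of the thyroid hormone receptor, was found in the Myh7b window and in 1 of 2 Myl2 windows, and in 16.3% of all windows. A CArG box, the site of SRF, was found in the Myl3 window alone among the members, and in 1.63% of all windows. The GATA motif GATAAG and the MEF2 site were not among the letters of the members' windows, against 7.44% and 3.19% of all windows. These matches are letters in a window and were not tested as binding sites. Not all RefSeq starts are GENCODE gene starts. Both Myl2 windows, with first bases at chr5:122092474 and chr5:122092939, lie upstream of the GENCODE Myl2 gene (chr5:122100951-122113472) and outside it. Matches for Myl2 therefore do not describe the sequence at its GENCODE start. The Myh6 and Myl3 windows lie inside their GENCODE genes.

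Levels were compared between genes only after division by the length of the longest coding transcript. Over the 23 libraries Myl2 averaged 8055 CPM per kb, Myl3 7048 and Myh6 6649, while Myh7 averaged 588 and Myh7b 74.7 CPM per kb. The order of the 3 abundant genes was not the same in all groups. Myh6 led in 3-month nicotine, with 7450 ± 412 CPM per kb against 7157 ± 693 for Myl2, and in 3-month air, with 7206 ± 607 CPM per kb, against 6649 ± 468 for Myl2 (SD, n = 4 each), and the ranges of those genes overlapped in both groups. In 3-week vehicle Myl2 led with 11164 ± 3674 CPM per kb, and Myh6 was at 5129 ± 1227 (SD, n = 3).

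**Figure D2:**
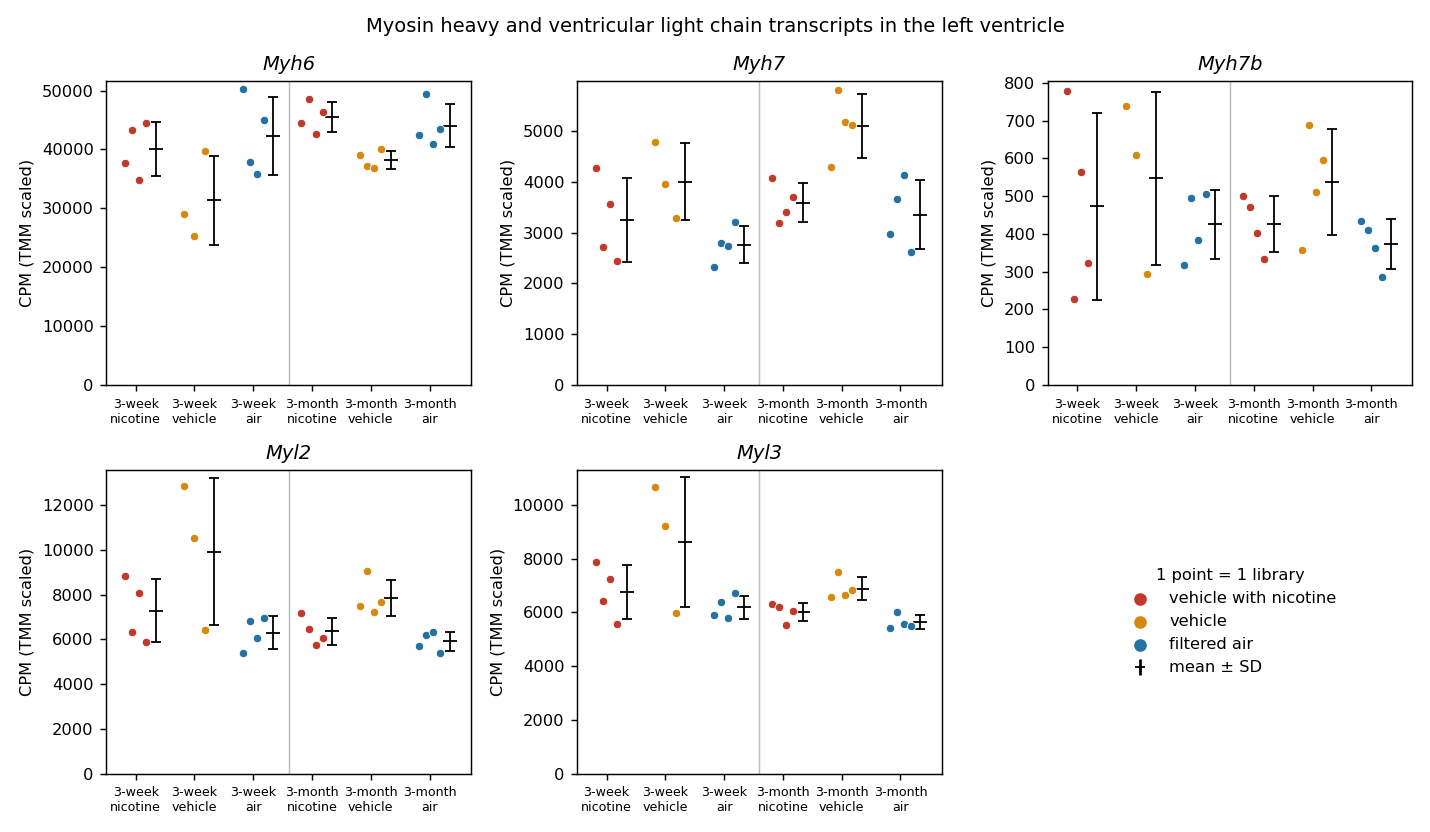
Level of each gene (CPM, vertical axes starting at 0) in each of the 23 libraries, with the mean ± SD of each group beside its points. In 3-week vehicle, libraries 1 and 2 stood apart from library 4 for Myh6, Myl2 and Myl3, while the 4 libraries of 3-month vehicle stayed close together for Myl3, between 6564 and 7488 CPM.

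Myh6, the fast heavy chain and the most counted of the 5, was lower in vehicle than in air mice at the 3-week start. Its level was 29080, 25247 and 39727 CPM in 3-week vehicle libraries 1, 2 and 4, against 50304, 37885, 35920 and 44927 CPM in 3-week air libraries 1, 2, 4 and 5. Vehicle libraries 1 and 2 were below all air libraries, and library 4 lay among them. In the fit across all genes Myh6 fell by 0.43 ± 0.14 on the log2 scale (edgeR quasi-likelihood test, Benjamini-Hochberg adjusted p = 0.0386). It did not pass where only the groups compared were fitted, a fit in which 0 of 14710 genes passed. Levels in 3-week nicotine were 37624, 43259, 34843 and 44516 CPM, which overlapped with air (-0.08 ± 0.12 log2, adjusted p = 0.835).

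After the 3-month start Myh6 was at 39019, 37197, 36845 and 40037 CPM in vehicle libraries 1 to 4, against 42378, 49380, 40918 and 43528 CPM in air. All vehicle values were below all air values, by a small margin. The fitted difference of -0.20 ± 0.12 log2 did not pass in the fit of all libraries (adjusted p = 0.432) and passed where only the groups compared were fitted (adjusted p = 0.0405). With nicotine the 4 values were 44559, 48608, 42693 and 46298 CPM, above all vehicle values and overlapping with air.

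Myh7, the slow heavy chain, was higher in vehicle than in air mice. At the 3-week start it was at 4788, 3949 and 3285 CPM in vehicle libraries 1, 2 and 4, against 2327, 2789, 2744 and 3202 CPM in air libraries 1, 2, 4 and 5. Here all 3 vehicle values were above all air values, with vehicle library 4 and air library 5 close together. Myh7 rose by 0.54 ± 0.18 log2 (1.45-fold, edgeR adjusted p = 0.0477), which is close to the threshold of 0.05. With RLE in place of TMM scaling the adjusted p was 0.0544, and with a length offset it was 0.0522. Nor did Myh7 pass with only the groups compared in the fit.

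In mice started at 3 months Myh7 was at 4293, 5812, 5179 and 5112 CPM in vehicle libraries, against 2971, 3666, 4145 and 2629 CPM in air. The groups did not overlap, and the highest air library, 4, lay just under vehicle library 1. The fitted difference was larger than at the 3-week start, 0.60 ± 0.17 log2, but did not pass over all libraries (edgeR adjusted p = 0.221) and passed with only these groups in the fit (0.61 log2, adjusted p = 0.0146). DESeq2 gave an adjusted p of 0.0669. The vehicle effects of the 2 starts differed by -0.07 ± 0.25 log2 (3-week minus 3-month, adjusted p = 0.926), which did not pass.

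In 3-month nicotine the Myh7 values were 4067, 3182, 3413 and 3706 CPM, all below the vehicle libraries (-0.51 ± 0.17 log2, edgeR adjusted p = 0.398, and -0.53 log2 with adjusted p = 0.00371 in the fit of these groups only) and overlapping with air (0.10 ± 0.17 log2, adjusted p = 1.0). In 3-week nicotine they were 4267, 2723, 3566 and 2449 CPM. Libraries 2 and 5 were above all 3-week air libraries and libraries 3 and 6 were not (0.23 ± 0.17 log2 against air, adjusted p = 0.598).

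Myh7b was the lowest of the 5, with group means of 60.6 to 88.7 CPM per kb, against 444 to 818 CPM per kb for Myh7, and it had the widest range. It ranged from 227 to 777 CPM over all libraries, a 3.42-fold range, against 1.99-fold for Myh6 and 2.5-fold for Myh7. Both ends of that range were 3-week nicotine libraries, with 777 CPM in library 2, 227 in library 3, 564 in library 5 and 324 in library 6. Vehicle against air gave 0.36 ± 0.33 log2 at the 3-week start (adjusted p = 0.426) and 0.53 ± 0.31 at the 3-month start (adjusted p = 0.414), and neither passed.

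Of the 5 members, 4 passed in vehicle against air at the 3-week start, where 16.2% of all genes tested passed in either direction, 9.27% higher and 6.92% lower. The Myh7 groups did not overlap there, as for 9.25% of all genes. Members passed in no other comparison of the all-library fit. In nicotine against air, 0 of 5 passed at the 3-week start by edgeR, by DESeq2 or at an unadjusted p under 0.05, where 0.813%, 3.08% and 12.8% of all genes did. The count was 0 by the same 3 rules at the 3-month start, where 0.0%, 0.0129% and 2.63% of all genes passed. No gene at all passed in vehicle against air at the 3-month start, with 0.0% called and 2200 genes at an unadjusted p under 0.05 (DESeq2 called 86), or in nicotine against vehicle at that start, with 0.0% called, 1889 such genes and 13 by DESeq2. Where those groups alone were fitted, 18.4% and 15.8% of genes passed, and 4 of 5 members passed in each, all but Myh7b. Nicotine against vehicle at the 3-week start also called 0.0% of genes, with 2992 at an unadjusted p under 0.05 and 254 by DESeq2. With only its own groups fitted, vehicle against air at the 3-week start called 0 of 14710 genes, and so 0 of 5 members, against 4 in the all-library fit.

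The 4 calls at the 3-week start were lost without any 1 of 4 libraries, and with them most calls over all genes. Without vehicle library 1 or without air library 1, 0 members and 0 of all genes passed, against 2509 genes with all libraries. Without vehicle library 2, 0 members and 107 genes passed, and without air library 5, 0 members and 170 genes. The log2 differences kept their direction without each of these 4 libraries, at -0.40 to -0.29 for Myh6, 0.37 to 0.61 for Myh7, 0.40 to 0.69 for Myl2 and 0.28 to 0.51 for Myl3. Without air library 5, those of Myh7 (0.61), Myl2 (0.69) and Myl3 (0.51) were above their values with all libraries. Without air library 4, 2 members and 2671 genes passed, without air library 2, 3 members and 3328 genes, and without vehicle library 4, 4 members and 6969 genes. With vehicle library 4 alone standing for its group, assumed to vary like the others, Myh6 differed from air by -0.07 log2, Myh7 by 0.26, Myl2 by 0.04 and Myl3 by -0.04 (adjusted p = 1 for each, edgeR). Leaving library 4 out gave 3 members passing in nicotine against vehicle at the 3-week start, namely Myh6 (0.58 log2), Myl2 (-0.67) and Myl3 (-0.54), where 4793 of all genes passed, against 0 with all libraries. In the authors' deposited table of nicotine against air, the 5 members had adjusted p-values of 0.811 to 0.946 at the 3-week start and of 0.999 at the 3-month start.

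**Figure D3:**
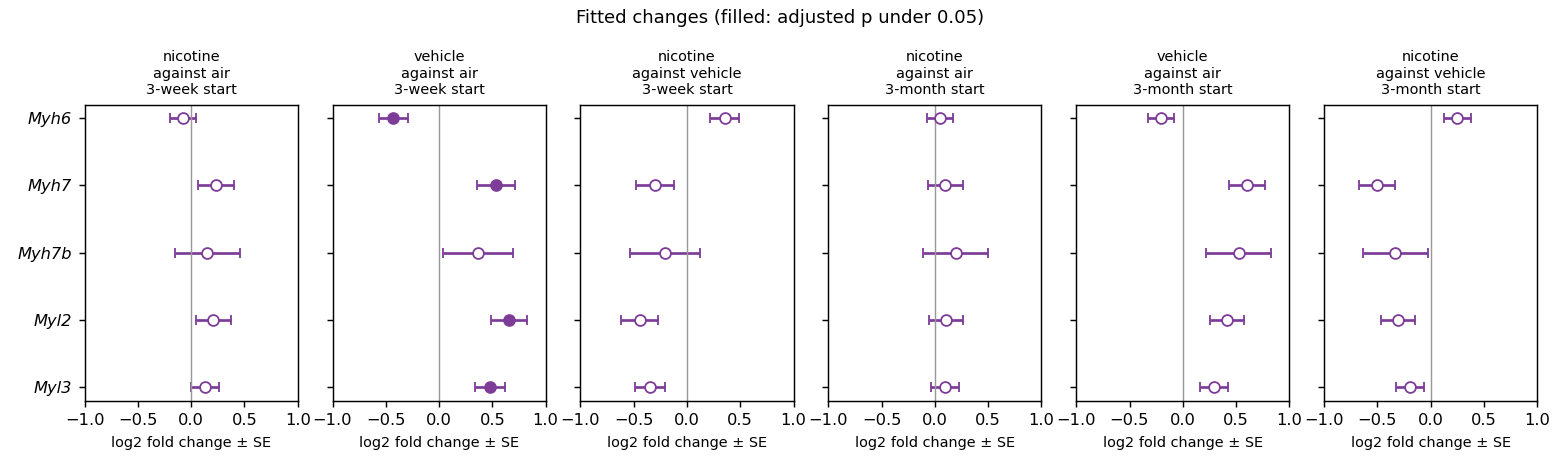
Fitted log2 fold change ± SE of each gene in the 6 treatment comparisons (horizontal axes, first-named group over second), from 1 fit of 23 libraries. Filled points have an adjusted p under 0.05 and occur only in vehicle against air at the 3-week start, with Myh6 lower and Myh7, Myl2 and Myl3 higher.

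The ratio of Myh7 to Myh6, which needs no scaling between libraries, was higher in vehicle than in air and nicotine libraries at the 3-month start. Vehicle libraries 1 to 4 had 11, 15.6, 14.1 and 12.8 Myh7 counts per 100 Myh6 counts, against 7.01, 7.42, 10.1 and 6.04 in air libraries 1, 2, 4 and 5. No vehicle value fell within the air range, and vehicle was higher by 0.82 log2 (1.76-fold, exact two-sided permutation test, p = 0.0286, which is the smallest that 4 against 4 allows, and 0.171 adjusted over 12 contrasts). Nicotine libraries 1 to 4 had 9.13, 6.55, 8.0 and 8.0. All 4 were below the vehicle values and within the span of the air values (nicotine against vehicle -0.75 log2, exact p = 0.0286, adjusted 0.171, and nicotine against air 0.07 log2, exact p = 0.714).

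At the 3-week start the same ratio was 16.5, 15.6 and 8.27 in vehicle libraries 1, 2 and 4, against 4.63, 7.36, 7.64 and 7.13 in air libraries 1, 2, 4 and 5. All vehicle values were above all air values, and vehicle library 4 exceeded the highest air library by less than the air libraries differed among themselves. The difference was 0.97 log2 (1.96-fold, exact permutation p = 0.0571, the smallest that 3 against 4 allows, adjusted 0.229). With library 4 alone it was 0.33 log2, with no test. Nicotine libraries 2, 3, 5 and 6 had 11.3, 6.29, 10.2 and 5.50, so libraries 2 and 5 were above all air libraries and libraries 3 and 6 were below 3 of the 4 (0.28 log2 against air, exact p = 0.371).

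None of the 12 contrasts of this ratio passed after adjustment. The exact p cannot fall below 0.0286 for 4 against 4 libraries and 0.0571 for 3 against 4. A comparison of 2 groups could therefore pass only if a difference between starts passed too, also for the heavy to light chain ratio below. The vehicle effect on Myh7 to Myh6 differed between the 2 starts by 0.15 log2 (3-week minus 3-month, exact permutation p = 0.805). Counting error was small beside these differences, since the widest 95% exact binomial interval of the Myh7 share of both genes' counts spanned 0.207 percentage points, which covers counting error only. In vehicle Myh7 made up 11.8 ± 3.59% of both genes' counts at the 3-week start (SD, n = 3) and 11.8 ± 1.53% at the 3-month start (n = 4), and in air 6.26 ± 1.24% and 7.09 ± 1.5% (n = 4 each). In no library did Myh7 exceed 16.5 counts per 100 Myh6 counts.

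**Figure D4:**
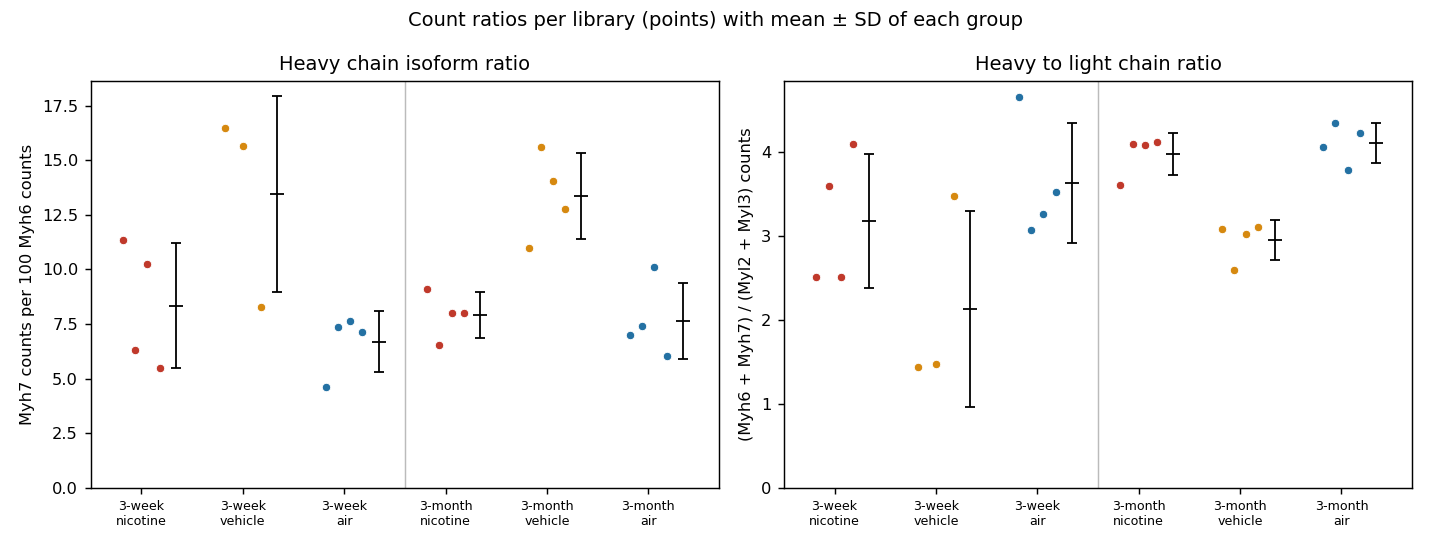
Left, Myh7 counts per 100 Myh6 counts in each library, and right, the ratio of heavy chain (Myh6 + Myh7) to light chain (Myl2 + Myl3) counts, with the mean ± SD of each group (vertical axes start at 0). At the 3-month start the vehicle libraries lie between 11 and 15.6 on the left, above all nicotine and air libraries, and between 2.60 and 3.11 on the right, below all of them.

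Both light chain genes rose where Myh6 fell, in vehicle against air at the 3-week start. Myl2, the regulatory light chain whose phosphorylation tunes contraction, was at 12859, 10510 and 6405 CPM in 3-week vehicle libraries 1, 2 and 4, against 5391, 6833, 6047 and 6947 CPM in 3-week air. Libraries 1 and 2 were far above air and library 4 was within its range. Myl2 rose by 0.65 ± 0.17 log2 (1.57-fold, edgeR adjusted p = 0.0253), but did not pass where only the groups compared were fitted. It was at 8838, 6353, 8065 and 5894 CPM in 3-week nicotine, where libraries 2 and 5 were the high ones again (0.21 ± 0.16 log2 against air, adjusted p = 0.628).

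Myl3, the essential light chain, ordered the 3-week vehicle and nicotine libraries as Myl2 did. It was at 10674, 9212 and 5974 CPM in 3-week vehicle, against 5899, 6391, 5791 and 6709 CPM in 3-week air, and rose by 0.48 ± 0.14 log2 (1.39-fold, edgeR adjusted p = 0.0325). Myl3 did not pass either where only the groups compared were fitted. In 3-week nicotine it was at 7864, 6414, 7258 and 5563 CPM (0.13 ± 0.13 log2 against air, adjusted p = 0.719). The Myl2 to Myl3 count ratio stayed between 0.914 and 1.21 in all 23 libraries.

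Both light chains were above air at the 3-month start in every vehicle library, and none lay within the air range as library 4 did at the 3-week start. Vehicle library 2 was the highest for both genes. Myl2 was at 7508, 9052, 7240 and 7667 CPM in vehicle, against 5726, 6192, 6310 and 5414 CPM in air (0.41 ± 0.16 log2, edgeR adjusted p = 0.317, and 0.00382 in the fit of these groups only). Myl3 was at 6564, 7488, 6640 and 6850 CPM in vehicle, against 5431, 6008, 5580 and 5495 CPM in air (0.29 ± 0.13 log2, adjusted p = 0.334, and 0.00579). Nicotine values of both genes were below all vehicle values, at 7179, 6449, 5743 and 6078 CPM for Myl2 and 6316, 6189, 5547 and 6040 CPM for Myl3. At this start, 4 of 5 members had groups that did not overlap in vehicle against air and 4 of 5 in nicotine against vehicle, where 20.1% and 18.8% of all genes did the same.

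The heavy to light chain ratio was on average lowest in vehicle at both starts. It was 3.08, 2.60, 3.03 and 3.11 in 3-month vehicle libraries, against 4.06, 4.35, 3.79 and 4.23 in 3-month air, a difference of -0.48 log2 (exact permutation p = 0.0286, adjusted 0.171 over 12 contrasts). The 3-month nicotine libraries had 3.6, 4.10, 4.08 and 4.13, all above vehicle (0.43 log2, exact p = 0.0286, adjusted 0.171). At the 3-week start the ratio was 1.44, 1.48 and 3.47 in vehicle libraries 1, 2 and 4, against 4.66, 3.08, 3.27 and 3.52 in air. Libraries 1 and 2 were far below all air libraries, and library 4 lay among them (-0.88 log2, exact p = 0.171, and -0.04 with library 4 alone).

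Both ratios moved with the length trend of the libraries. The trend was -0.36, 0.12, -0.31 and 0.27 in 3-week nicotine libraries 2, 3, 5 and 6, it was -0.19, -0.26 and 0.23 in libraries 1, 2 and 4 of the vehicle, and 0.27, -0.05, -0.06 and -0.02 in 3-week air libraries 1, 2, 4 and 5. In 3-month nicotine it was -0.01, 0.20, 0.37 and 0.26, in vehicle -0.14, -0.26, -0.15 and -0.21, and in air 0.19, 0.21, 0.10 and 0.35. Below -0.1 there were 8 libraries, namely 3-week nicotine 2 and 5, 3-week vehicle 1 and 2 and the 4 of 3-month vehicle, with 10.2 to 16.5 Myh7 per 100 Myh6. The other 15, which include all 8 air libraries, had 4.63 to 10.1. The heavy to light chain ratio was 1.44 to 3.11 in the 8 and 3.08 to 4.66 in the 15, which overlap slightly. Within the 8, the trend was lowest in 3-week nicotine libraries 2 and 5, with 11.3 and 10.2 Myh7 per 100 Myh6. Vehicle libraries 1 and 2 of that start had more, 16.5 and 15.6.

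The trend and the vehicle group of the 3-month start therefore cannot be told apart, since all 4 vehicle libraries were below -0.1 and no nicotine or air library was. At the 3-week start the libraries below -0.1 include no air library. Above -0.1 the Myh7 to Myh6 ratio was 8.27 in the 1 vehicle library and 4.63 to 7.64 in the 4 air libraries. The longest coding transcripts of Myh6 and Myh7 have 6113 and 6230 bases. A length offset used merged exonic lengths instead, 6726 bases for Myh6, 8616 for Myh7, 1950 for Myl2 and 2044 for Myl3. With it the Myh7 to Myh6 difference of vehicle against air was 0.86 log2 at the 3-month start and 1.0 at the 3-week start. The same offset brought the heavy to light chain difference to -0.31 log2 at the 3-month start (exact permutation p = 0.0286) and -0.69 at the 3-week start (exact p = 0.114). The part of the trend's source in these results was not tested.

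**Figure D5:**
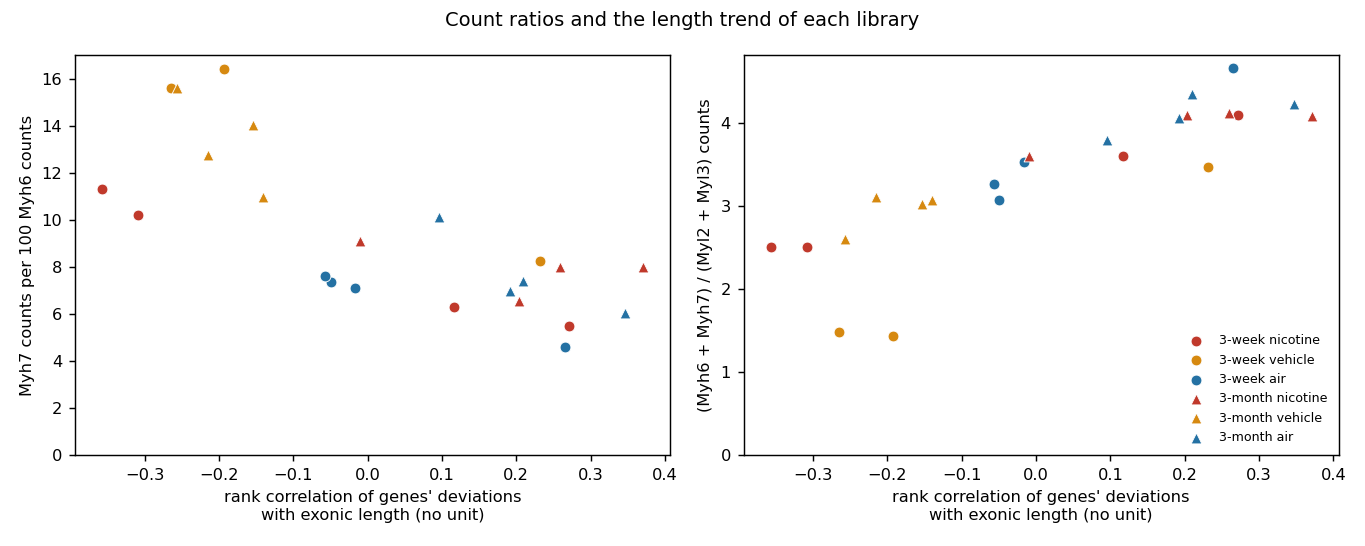
Each library's rank correlation of gene deviations with exonic length (horizontal axes, no unit) against its Myh7 counts per 100 Myh6 counts (left) and its heavy to light chain count ratio (right). Circles are 3-week and triangles 3-month libraries. The 8 libraries below -0.1 hold the Myh7 to Myh6 values of 10.2 to 16.5, and none of them is an air library.

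Markers of other cells differed between 3-week vehicle libraries 1 and 2, which were alike in their myosin genes. Library 1 had the highest blood sum of all libraries, 2361 CPM over 5 markers, where libraries 2 and 4 had 467 and 499 CPM and 3-week air had 505 to 930 CPM. The highest atrial sum was that of library 2, 513 CPM over 6 markers, with 111 and 142 CPM in the others of its group and 124 to 377 CPM in 3-week air. In 3-week nicotine the blood sum was 1086 to 1403 CPM, above all 3-week air libraries, and the atrial sum 85.0 to 120 CPM, below them all. At the 3-month start the blood sum was 408 to 552 CPM in nicotine, 660 to 892 CPM in vehicle and 304 to 721 CPM in air, and all nicotine libraries were below all vehicle libraries. In that comparison 4 of 5 members did not overlap either, and nor did 18.8% of all genes. The atrial sum at that start was 135 to 183 CPM in nicotine, 134 to 200 CPM in vehicle and 98.1 to 287 CPM in air. All markers of both lists had counts in each of these groups. The part of these cells in the results was not tested.

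Starting age went with no call among the members. In 3-month against 3-week libraries, 0 of 5 passed within vehicle, where 12.5% of all genes did, 0 of 5 within nicotine, where 9.52% did, and 0 of 5 within air, where 0.00645% did (edgeR). By DESeq2 the counts were also 0, where 16.5% of all genes passed within vehicle, 12.7% within nicotine and 0.271% within air. With no adjustment (p under 0.05) 2 of 5 passed within vehicle, near the 32.9% of all genes, 0 within nicotine (28.0% of all genes) and 0 within air (9.08%). The effects of treatment did not differ between starts for any member past the threshold either, where 0.135% of all genes passed for nicotine against air, 0.0% for vehicle against air and 0.0% for nicotine against vehicle. In vehicle Myl3 came closest, at -0.32 ± 0.14 log2 (edgeR adjusted p = 0.114), followed by Myh6 at 0.29 ± 0.13 (adjusted p = 0.142). Without library 4 of 3-week vehicle, 3 members passed in that comparison, where 6306 of all genes did, against 1933 with all libraries. In air the Myh7 to Myh6 ratio was 7.65 ± 1.75 per 100 at the 3-month and 6.69 ± 1.39 at the 3-week start (SD, n = 4 each, exact permutation p = 0.514).

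The noncoding genes Mhrt, antisense to Myh7, and Mir208b showed the same split of the 3-week vehicle libraries. Of 6 listed, 4 were tested, and 1 of them, Mhrt, passed in vehicle against air at the 3-week start. There 16.2% of all genes passed, and 1 of 4 is too few to set apart from that share. Mhrt, the antisense RNA that in mice is known to hold back a chromatin remodeller during stress, was at 383, 304 and 72.4 CPM in 3-week vehicle libraries 1, 2 and 4, against 107, 142, 117 and 124 CPM in 3-week air. Libraries 1 and 2 exceeded all air libraries and library 4 was below them all. Mhrt rose by 1.04 ± 0.33 log2 (edgeR adjusted p = 0.0409), and it did not pass with the length offset. Nor did it pass without vehicle library 1 or air library 1, or where only the groups compared were fitted. In 3-week nicotine libraries 2, 3, 5 and 6 Mhrt was at 234.2, 90.23, 171.7 and 116.5 CPM (0.32 ± 0.31 log2 against air, edgeR adjusted p = 0.709). Nicotine libraries 2 and 5, which have a low length trend, were also above all air libraries. At the 3-month start it was at 96.1, 121, 115 and 124 CPM in vehicle, against 90.3, 108, 82.9 and 88.4 CPM in air (0.30 ± 0.31 log2, adjusted p = 0.631).

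Reads assigned to the Mir208b hairpin, which lies in a Myh7 intron, stood at 87.9, 81.5 and 18.9 CPM in 3-week vehicle libraries 1, 2 and 4, against 24.7, 47.8, 38.9 and 38.2 CPM in 3-week air (0.74 ± 0.38 log2, adjusted p = 0.152). High values of 72.2 and 62.4 CPM also occurred in 3-week nicotine libraries 2 and 5, while libraries 3 and 6 had 20.7 and 34.4 CPM. The libraries high for Mir208b were those with a low length trend at this start. Mir208a, in a Myh6 intron, stayed at 4.76 CPM or less, and Mir499 had at most 4 counts in any library. These libraries were made from total RNA with no size selection stated, so the counts are of the hairpin region and not of mature miRNA.

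Of 36 other thick filament genes (other myosin chains, myosin binding protein, titin, M-band proteins, light chain kinases and chaperones) 27 were tested in vehicle against air at the 3-week start, and 1 rose and 4 fell, with a median of -0.08 log2 against 0.02 over all genes. The share that passed, 5 of 27, was near the 16.2% of all genes. No gene at all passed there without vehicle library 1, without air library 1 or where only the groups compared were fitted. None of these 5 calls held then. Trim63, the ubiquitin ligase MuRF1 that marks myosin for breakdown, fell to 175 ± 68.2 CPM in vehicle, against 330 ± 95 CPM in air (-0.91 ± 0.21 log2, edgeR adjusted p = 0.0187). Smyd1, a methyltransferase that with its partners helps myosin fold, fell by 0.80 ± 0.25 log2 (adjusted p = 0.0387). The light chain phosphatase subunits went opposite ways, Ppp1r12a by 0.61 ± 0.19 (adjusted p = 0.0393) and Ppp1r12b by -0.81 ± 0.28 (adjusted p = 0.0489). The fourth that fell was the light chain kinase family member Mylk4 (-1.01 ± 0.34 log2, adjusted p = 0.0494), named after its value was seen. None of the 27 passed in nicotine against air at either start, or in vehicle against air at the 3-month start, where the median was -0.21 log2 against 0.01 over all genes.

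Of 38 listed regulators of the heavy chain genes, 36 were tested in vehicle against air at the 3-week start, and 1 rose and 4 fell, with a median of -0.08 log2 against 0.02 over all genes. The share that passed, 5 of 36, was also near the 16.2% of all genes. These calls were likewise lost without vehicle library 1 or air library 1, and where only the groups compared were fitted. Pura, a single-strand DNA binding protein reported to repress Myh6, rose by 1.04 ± 0.25 log2 to 48.5 ± 24.2 CPM, against 23.6 ± 3.25 CPM in air (edgeR adjusted p = 0.0207). The serum response factor gene Srf fell by 0.68 ± 0.19 log2 (adjusted p = 0.0284). Gata4, a cardiac zinc finger factor, fell by 0.60 ± 0.17 (adjusted p = 0.0313) and Mef2d, a factor of the MEF2 family, by 0.41 ± 0.12 (adjusted p = 0.033). Parp1, a nuclear enzyme of the DNA damage response, was the fourth, at -0.52 ± 0.18 (adjusted p = 0.0485), and was named after its value was seen. The thyroid hormone receptors Thra and Thrb and the TEAD genes were not among those that passed in this comparison. None passed in nicotine against air at either start.

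Thyroid hormone is known to raise Myh6 and lower Myh7, so a list of other cardiac genes that respond to it was set beside them. Of 18 genes 17 were tested, and in vehicle against air at the 3-week start 0 rose and 2 fell, the glucose transporter Slc2a4 (-0.36 ± 0.11 log2, edgeR adjusted p = 0.0377) and the sodium pump subunit Atp1b1 (-0.80 ± 0.26, adjusted p = 0.0413). Of all genes 9.27% rose and 6.92% fell, and 2 of 17 is a share near the 16.2% of both directions. Neither call held without vehicle library 1 or air library 1, or where only the groups compared were fitted. The list's median was -0.36 log2 against 0.02 over all genes, and 1 of 17 was above 0. The SERCA2 gene Atp2a2, which encodes a calcium pump of the cell's calcium store, had 7243 ± 4578 CPM in vehicle (SD, n = 3) and 14140 ± 5070 CPM in air (n = 4, adjusted p = 0.0532). At the 3-month start 0 of 17 passed, the median was -0.31 log2 against 0.01, and 1 of 17 was above 0. The list was chosen with earlier results of these data known, and nothing is drawn from its direction.

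Between starts, within nicotine, Srf (0.88 ± 0.17 log2), Vgll2 (1.96 ± 0.41), Hspb1 (0.57 ± 0.17), Hcn2 (0.41 ± 0.12) and Klf9 (0.54 ± 0.17) were higher in 3-month than in 3-week libraries (edgeR adjusted p = 0.00341 to 0.0476). Within vehicle, Srf (0.76), Gata4 (0.56), Trim63 (0.64) and Ucp3 (1.57 log2) were higher and Thra (-0.36), Pura (-0.81), Rxrb (-0.30), Ppp1r12a (-0.59) and Mhrt (-1.15 log2) lower in 3-month than in 3-week libraries (adjusted p = 0.0161 to 0.0488), with Rxrb named after its value was seen. Calls within vehicle depended on 3-week vehicle library 1. Without it 1 of all genes passed, against 1933 with all libraries. Where only those groups were fitted, 347 of 14818 passed. The part of the length trend in these calls was not tested. Thra, the main cardiac thyroid hormone receptor gene, averaged 76.6 ± 7.12 CPM in 3-month and 98.4 ± 14.5 CPM in 3-week vehicle libraries. Among these genes Srf, Trim63, Gata4, Pura, Ppp1r12a and Mhrt had also passed, in the opposite direction, in vehicle against air at the 3-week start, a comparison that shares the 3-week vehicle libraries.

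Genes whose log2 CPM followed each member most closely over the 23 libraries, among 11414 genes, were named as a description, since libraries share groups, depth and the length trend. Myh6 was followed most closely by Pfkm (Pearson r = 0.978), Pygm (0.975) and Cs (0.970), which encode muscle phosphofructokinase, muscle glycogen phosphorylase and citrate synthase, and least by Fabp5 (-0.928). Myh7 was followed by Trim54 (0.847), Csrp3 (0.840) and Cpne7 (0.839), of which Trim54 and Csrp3 encode proteins of the sarcomere, and its lowest value was with Ncbp3 (-0.831). Myh7b was nearest to Mir5125 (0.914), Pde4c (0.913) and Arhgef1 (0.884), and farthest from Zfp367 (-0.918). Myl2 was followed closely by the ribosomal protein gene Rps24 (0.980) and by Pfdn5 (0.979), with Dcaf7 lowest (-0.964).

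Myl3 was nearest to Ndufb9 (0.981), Tnni3 (0.978), the cardiac troponin I gene, and Cox6b1 (0.977), with Supt16 lowest (-0.949). Among the members, Myl2 and Myl3 followed each other (0.971), and Myh6 went against both (-0.799 with Myl2 and -0.767 with Myl3). Myh6 and Myh7 were less closely opposed, at -0.427. After group means were removed, Myh6 was nearest to Pfkm (0.964), Mybpc3 (0.952), the cardiac myosin binding protein gene, and Pygm (0.95), and farthest from Clec2d (-0.926). Myh7 was then nearest to Ppdpf (0.957), Nudt22 (0.876) and Wbp1 (0.873) and farthest from Zfp597 (-0.907). Myh7b was nearest to Pan2 (0.939), Xrcc1 (0.930) and Dgkz (0.923) and farthest from Fam122b (-0.948). Both light chain genes had Tnni3 as the nearest gene within groups, at 0.984 for Myl2 and 0.970 for Myl3, and still followed each other (0.958).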

How the data were processed

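Raw counts per gene, as whole numbers, were deposited by the authors. The tools listed in the submitters' processing notes are DESeq2, STAR 2.5.2b, Trimmomatic 0.36 and featureCounts (Subread 1.5.2). Genome build and annotation, like the strand setting, were not given in those notes. The authors' tables for nicotine versus air, also deposited, hold log2 fold changes, p-values and a signal per library (counts over a size factor) that served only to check column names. Of the count columns, 0 belonged to no library. GENCODE vM21 gave symbols, lengths and coordinates by gene ID.

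edgeR 4.0.16 (R 4.3.3) was run on the counts, with filterByExpr (minimum count 10), TMM and 1 robust quasi-likelihood fit of 6 groups (17 residual degrees of freedom). Benjamini-Hochberg adjustment covered 15500 genes, with a threshold of 0.05. DESeq2 1.42.0 was an alternative. An adjusted p with no tool named is edgeR's. Count ratios were compared by exact two-sided permutation of libraries. The length offset took a smooth trend over exonic length out of each library. The tests were checked on simulated data. Besides the members, the named genes were up to 4 past the threshold per list and comparison, by smallest p, and the genes most like each member. A gene that this rule names is not reported here. Members and lists were chosen with earlier results of these data known.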

Additional observations from a re-analysis of the deposited data

Results flagged for a closer look

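The Myh7 to Myh6 ratio of 3-week air library 1 was 4.627 per 100, far below the 7.13 to 7.64 of the other air libraries of that start, with 0.83 of the group's range as the gap to its nearest neighbour. The heavy to light chain ratio was 3.603 in 3-month nicotine library 1, below the others of its group at 4.08 to 4.13 (gap 0.919 of the range). It was 2.6 in 3-month vehicle library 2, below 3.03 to 3.11 in the others (gap 0.838). The limit for 4 samples was 0.829 (Dixon's 95% critical value). Of 35 groups of values tested 3 passed it, and chance alone passes about 1 in 20.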

How the results depend on the processing

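Of 1045 alternative values of single members, 56 changed sign, and 0 of those had an adjusted p under 0.05. In vehicle against air at the 3-week start, members past the threshold numbered 4, 4 with DESeq2 or the library total alone, 3 with RLE or the length offset, 1 with no count filter, and 0 where only the groups compared were fitted, without air library 1 or 5, or without vehicle library 1 or 2. Of all genes, 16.2% passed there in the main fit and 22.1% with DESeq2. With the library total, RLE, the length offset or no filter that share is not given here, and nothing is drawn from those counts. Fitting only the groups compared gave 4 members in vehicle against air and 4 in nicotine against vehicle at the 3-month start. Over all genes that fit called 0 in vehicle against air at the 3-week start, against 2509 with all libraries, and 2635 and 2247 in those 3-month comparisons, against 0. DESeq2 called 478 genes in nicotine against air at the 3-week start, against 126. Thyroid hormone-responsive genes past the threshold in vehicle against air at the 3-week start numbered 4 with the length offset, against 2. The cause of these changes was not tested. Replicate numbers are shared between groups but the libraries of a number did not deviate together (correlations of -0.37 to 0.415). With the replicate block, 0 members passed in vehicle against air at the 3-week start, where 3 genes passed in all. The Myh7 to Myh6 ratio paired by number differed by -0.047 (nicotine against air), 0.69 (vehicle against air, exact p = 0.25) and -0.75 log2 (nicotine against vehicle, exact p = 0.125) at the 3-month start, and the heavy to light chain ratio by -0.48 and 0.43 in the last 2 (exact p = 0.25 and 0.125). Each of these p-values is the smallest that sign flips within so few shared numbers allow. Myh7b in 3-month against 3-week vehicle was 0.14 with the replicate block and 0.021 with no count filter.

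Without 3-week vehicle libraries 1 and 2, the remaining library is assumed to vary like the other groups, and ratios have no test. Against air, log2 differences were then -0.52 for Myh7b, -0.037 for Myl3, 0.33 for the Myh7 to Myh6 ratio and -0.045 for the heavy to light chain ratio. For nicotine against vehicle they were -0.015 for Myh6, 0.66 for Myh7b, 0.16 for Myl2, 0.15 for Myl3, -0.055 for Myh7 to Myh6 and -0.16 for heavy to light. For 3-month against 3-week vehicle they were -0.070 for Myh6, 0.85 for Myh7b, 0.28 for Myl2, 0.19 for Myl3, 0.68 for Myh7 to Myh6 and -0.24 for heavy to light. The vehicle effect of the 3-week minus the 3-month start was 0.13 for Myh6, -0.37 for Myl2, -0.33 for Myl3, -0.49 for Myh7 to Myh6 and 0.43 for heavy to light. The same difference for nicotine against vehicle was -0.25 for Myh6, 0.48 for Myl2, 0.36 for Myl3, 0.70 for Myh7 to Myh6 and -0.59 for heavy to light. Without 3-week air libraries 1 and 5, Myh6 in nicotine against air was 0.10, its nicotine effect between starts 0.062, the vehicle effect on Myh7 to Myh6 between starts -0.040 and the nicotine effect on heavy to light between starts 0.017. The nicotine effect between starts was 0.021 for Myh7b and -0.056 for Myl3 with the length offset, and 0.0083 for Myh7b with the library total alone.

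With 1 library left out in turn, members past the threshold numbered 0 to 4 in vehicle against air and 0 to 3 in nicotine against vehicle at the 3-week start, and 0 to 3 in 3-month against 3-week vehicle, where all genes past it numbered 0 to 6969, 0 to 4793 and 1 to 6306. At the 3-month start the Myh7 to Myh6 difference was 0.71 to 0.96 in vehicle against air and -0.84 to -0.66 in nicotine against vehicle, and the heavy to light difference -0.52 to -0.42 and 0.37 to 0.48, with an exact p of 0.0571 throughout, the smallest that 3 against 4 allows. Differences that changed sign, all past no threshold, ran as follows. In nicotine against air at the 3-week start Myh6 ran from -0.15 to 0.017 and Myh7b from -0.19 to 0.37, and at the 3-month start Myh7 ran from -0.0014 to 0.22 and Myh7 to Myh6 from -0.039 to 0.21. Myh7b in nicotine against vehicle at the 3-week start ran from -0.56 to 0.080. For 3-month against 3-week libraries, Myh6 in air ran from -0.0068 to 0.15, Myh7b from -0.30 to 0.28 in vehicle and from -0.38 to 0.20 in nicotine, and Myh7 to Myh6 from -0.28 to 0.22 in vehicle and from -0.20 to 0.15 in nicotine. The nicotine effect between starts ran from -0.048 to 0.11 for Myl3, -0.39 to 0.19 for Myh7b, -0.024 to 0.25 for Myh7 and -0.0028 to 0.19 for Myl2. The vehicle effect between starts ran from -0.23 to 0.031 for Myh7, -0.0099 to 0.45 for Myl2, -0.018 to 0.36 for Myl3, -0.47 to 0.11 for Myh7b and -0.026 to 0.47 for Myh7 to Myh6. Nicotine against vehicle between starts ran from -0.035 to 0.34 for Myh6, -0.23 to 0.42 for Myh7b, -0.35 to 0.11 for Myl2, -0.33 to 0.051 for Myl3 and -0.26 to 0.24 for Myh7 to Myh6. Depth did not limit the members, whose lowest count was 2764 (Myh7b).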
